A study of Mus musculus with 6 samples.

Results

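The genes described here are 10 genes of the cardiac sarcomere that come in fetal, atrial, ventricular or skeletal versions, namely Myh6, Myh7, Acta1, Actc1, Myl2, Myl3, Myl4, Myl7, Tnni1 and Tnni3. They were taken by gene symbol from the 54532 genes of the count table, in which each symbol has 1 row. RNA-seq was done on whole hearts of 6 C57BL/6 mice aged 3 months, 3 per genotype, for which the labels name no treatment, and the methods give the sensitive mice as male. The α1r/rα2s/s mice (resistant) have the rodent α1 subunit of the Na/K-ATPase, which binds cardiotonic steroids with low affinity. The α1s/sα2s/s mice (sensitive) carry a knock-in α1 with high affinity for these steroids. Both genotypes carry the steroid-sensitive α2 subunit (α2s/s), and the α1 substitution is in the germ line, so that it is not confined to cardiomyocytes. The comparison asks whether the hearts with a steroid-sensitive α1 differ in the levels of these isoforms and in the balance between the members of a pair.

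A cardiomyocyte contracts when the thick filament, built of myosin heavy chains with a regulatory and an essential light chain on each head, pulls on the thin filament of actin, tropomyosin and troponin. Several of these proteins have paralogs with different chamber, age and muscle patterns, and the adult mouse ventricle uses mainly α-myosin heavy chain (Myh6), cardiac actin (Actc1), the ventricular light chains (Myl2 and Myl3) and cardiac troponin I (Tnni3). β-Myosin heavy chain (Myh7), skeletal actin (Acta1) and slow skeletal troponin I (Tnni1) are prominent in the fetal heart, and Myh7 and Acta1 are known to return in many forms of pathological hypertrophy. Myl7 and Myl4 encode the regulatory and essential light chains of the atria and are also expressed in the fetal ventricle.

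The promoters of Acta1, Actc1, Myh6, Myh7 and Myl7 are printed first. Each is given as 300 bases from 250 before to 50 after a RefSeq start site on GRCm38.p6, 5′ to 3′ along the gene. Capitals mark a CArG box, the binding motif of serum response factor, an M-CAT motif (CATTCC on either strand), the motif of TEAD factors, or a TATA box (TATAAA). The actin genes are shown because their ratio was the one with the smallest spread between hearts relative to its difference. Acta1 lies at chr8:123894726-123895025 and Actc1 at chr2:114052826-114053125, both on the minus strand.
Acta1: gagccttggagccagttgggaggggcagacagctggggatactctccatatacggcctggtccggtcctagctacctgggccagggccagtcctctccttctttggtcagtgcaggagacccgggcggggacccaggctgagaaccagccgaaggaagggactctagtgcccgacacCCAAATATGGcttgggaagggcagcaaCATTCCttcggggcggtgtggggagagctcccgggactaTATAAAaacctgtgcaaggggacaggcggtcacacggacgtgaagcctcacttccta
Actc1: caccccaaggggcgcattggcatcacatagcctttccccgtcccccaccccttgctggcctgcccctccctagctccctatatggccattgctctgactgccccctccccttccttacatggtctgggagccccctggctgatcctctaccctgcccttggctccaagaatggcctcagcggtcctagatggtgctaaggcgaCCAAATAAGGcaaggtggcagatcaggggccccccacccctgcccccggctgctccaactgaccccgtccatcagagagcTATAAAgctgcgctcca
Both actin windows hold a CArG box, at -73 in Acta1 and at -47 in Actc1 from the start site, and the Acta1 window also holds an M-CAT motif at -46. The TATA box begins at -7 in Acta1 and at 33 in Actc1, so these positions hold only relative to the RefSeq start sites used. The myosin heavy chain genes are neighbours on chromosome 14 and are both on the minus strand, with windows at chr14:54966558-54966857 for Myh6 and chr14:54994577-54994876 for the first of the Myh7 start sites.
Myh6: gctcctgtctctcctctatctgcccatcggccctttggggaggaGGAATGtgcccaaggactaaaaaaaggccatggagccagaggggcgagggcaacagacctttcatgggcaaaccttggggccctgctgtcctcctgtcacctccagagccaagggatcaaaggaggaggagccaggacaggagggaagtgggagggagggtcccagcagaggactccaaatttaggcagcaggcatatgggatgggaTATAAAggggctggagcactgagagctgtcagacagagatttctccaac
Myh7: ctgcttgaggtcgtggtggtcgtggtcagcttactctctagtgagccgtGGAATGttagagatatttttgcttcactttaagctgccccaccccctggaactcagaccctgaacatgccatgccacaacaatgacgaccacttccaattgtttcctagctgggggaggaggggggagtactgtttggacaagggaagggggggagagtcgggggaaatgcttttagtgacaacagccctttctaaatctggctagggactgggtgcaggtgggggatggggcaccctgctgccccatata
Each of them has an M-CAT motif, at -206 in Myh6 and at -201 in Myh7, and no CArG box in these letters. Myl7 is shown as the atrial gene whose hearts did not overlap between the genotypes, at chr11:5898733-5899032 on the minus strand.
Myl7: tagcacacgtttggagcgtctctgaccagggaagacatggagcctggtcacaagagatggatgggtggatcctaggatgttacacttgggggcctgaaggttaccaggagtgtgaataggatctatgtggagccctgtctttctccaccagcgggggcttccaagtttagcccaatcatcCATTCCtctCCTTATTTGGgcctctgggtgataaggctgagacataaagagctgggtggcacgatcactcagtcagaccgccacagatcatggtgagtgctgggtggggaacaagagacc
It has a CArG box at -61 and an M-CAT motif at -70, the M-CAT motif ending 3 bases before the CArG box. All 10 genes matched the RefSeq promoter table, with 13 windows. Some start sites lay far from the gene start listed with the counts, at 7762 and 8227 bases for Myl2, 21817 for Myl3 and 19987 and 20077 for Tnni1. For Tnni3, Actc1 and Myh6 the distances were 1701, 673 and 320 bases. Both Myl2 windows lay outside the gene as listed, so its motif matches may not describe the promoter of the counted gene. A CArG box was found in 4 of the 10 genes (Acta1, Actc1, Myl3 and Myl7) and in 1.63% of all 32851 promoter windows of this length, both strands searched. The M-CAT motif was found in 5 of the 10 (Acta1, Myh6, Myh7, Myl3 and Myl7) and in 14.7% of all windows. The letters TATAAA, on either strand, were found in 4 of the 10 (Acta1, Actc1, Myh6 and Myl2) and in 13.6%. Besides the actin genes, they began at 1 in Myh6 and, on the opposite strand, at -216 in Myl2. Whether any of them works as a TATA box was not tested. The MEF2 site was found in 0 of the 10 and in 0.557%. The windows of Myl4, Tnni1 and Tnni3, which are not printed, held none of these motifs. All of these are matches of letters and not measurements of binding.

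Each heart had between 19309312 and 20470065 counts, and hearts of one genotype differed by far more than counting error (mean chi-square per gene from 6.85 to 13.1, where counting error alone gives about 1). The label of the tissue was borne out by Myh6, which alone took 2.45% ± 0.296 of all counts in resistant and 2.39% ± 0.0424 in sensitive hearts (SD, n = 3). The knock-in allele is an amino acid change that counts per gene cannot show. Of the 10 genes, 9 passed the filter on low counts, and Tnni1 did not.

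The genotypes were compared by log2 fold changes (log2FC, sensitive over resistant) with edgeR. None of the 9 tested genes passed its quasi-likelihood F test at an adjusted p below 0.05, where 214 of 14866 genes (1.44%) did. At an unadjusted p under 0.05, 4 of the 9 passed (Acta1, Myl7, Myl4 and Myh7), beside 14.5% of all tested genes. DESeq2 called 1 of them, Myl7, where it called 3.89% of the 10520 genes to which it gave an adjusted p. The hearts of the genotypes did not overlap in 3 of the 9 (Acta1 and Myl3 higher, Myl7 lower in sensitive hearts), beside 20% of all tested genes, 10% higher and 9.98% lower. Of the 9, 6 were higher and 3 lower in sensitive hearts (48.4% of all tested genes were higher), with a median log2FC of 0.06, against a median of -0.0078 over all tested genes. Together the 10 genes took 4.45% ± 0.318 of all counts in resistant and 4.33% ± 0.0881 in sensitive hearts (SD, n = 3), and these shares overlapped.

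**Figure D1:**
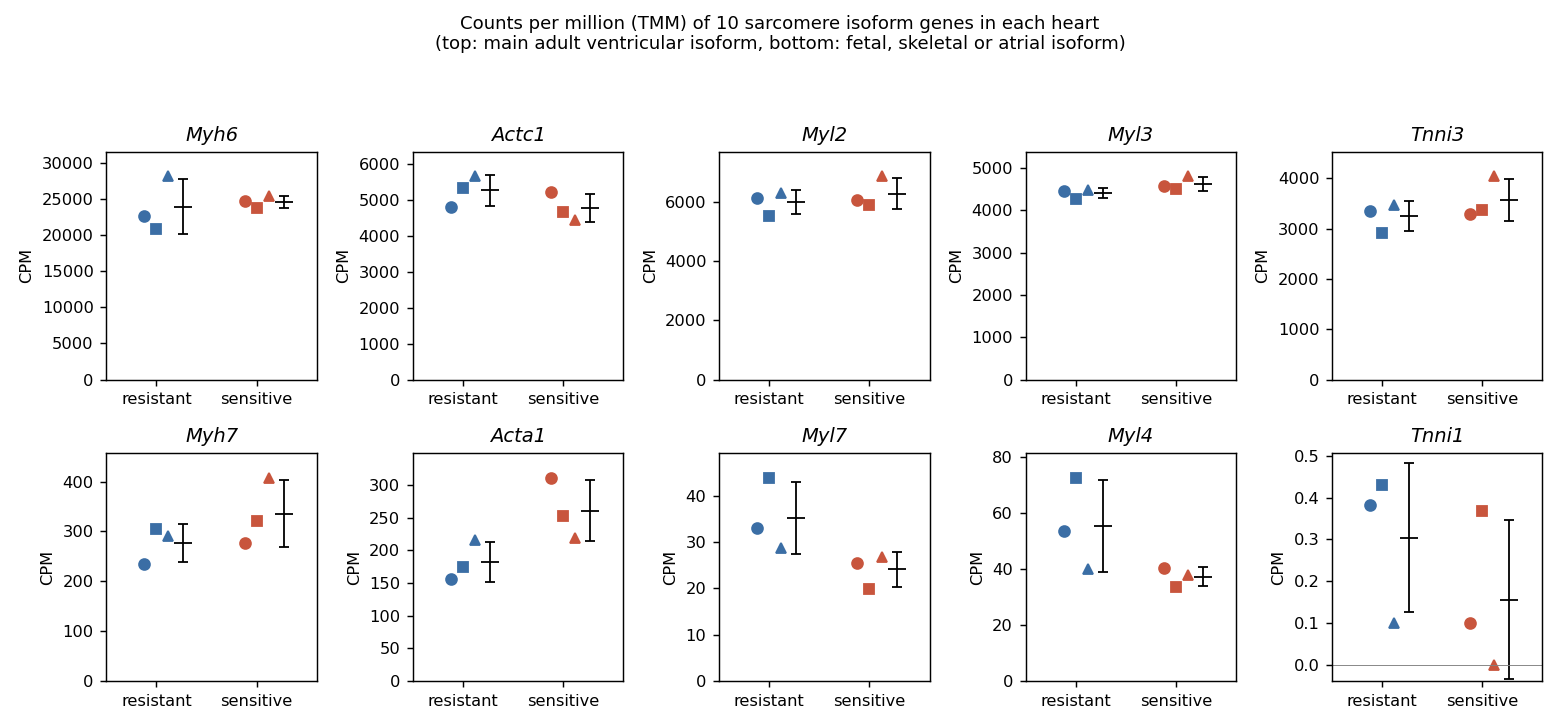
TMM-normalized CPM of the 10 genes, one panel per gene with its own linear y axis (CPM) and the genotypes on the x axis. Circles, squares and triangles are hearts 1, 2 and 3 of a genotype, and the bar beside them is the mean ± SD (n = 3). The sensitive hearts lie above all resistant hearts for Acta1 and Myl3 and below all of them for Myl7, and resistant heart 2 is the highest heart for Myl7 and Myl4.

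**Figure D2:**
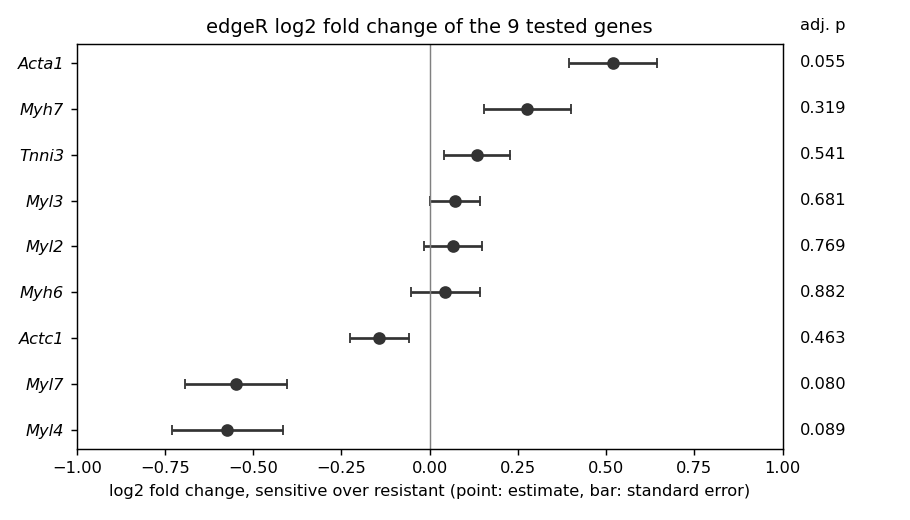
edgeR log2 fold changes (sensitive over resistant, x axis) of the 9 tested genes, ordered by size on the y axis, with bars of 1 standard error and the adjusted p at the right. Acta1 is highest at 0.52 and Myl4 lowest at -0.57, and the 5 main adult ventricular isoforms lie between -0.14 and 0.13.

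Skeletal actin differed most among the higher genes. Acta1 (ENSMUSG00000031972), on chromosome 8 of GRCm38 from 123891769 to 123894751, had 156, 174 and 217 CPM (counts scaled to the TMM-normalized library size) in resistant hearts 1, 2 and 3 and 312, 253 and 219 CPM in sensitive hearts 1, 2 and 3. All sensitive hearts were above all resistant hearts, although resistant heart 3 and sensitive heart 3 were almost level. The means were 182 ± 31.1 and 261 ± 46.9 CPM (SD, n = 3), 1.43-fold, with a log2FC of 0.52 ± 0.12 (SE, adjusted p = 0.0548 in edgeR). Whether Acta1 passed depended on the hearts and settings used. The adjusted p was 0.0176 without resistant heart 3 and 0.0234 without sensitive heart 3, and between 0.104 and 0.211 without any other heart. It was 0.152 in DESeq2, 0.259 with the robust prior of edgeR, 0.0459 without haemoglobin and mitochondrially encoded genes, and 5.81e-09 when every gene with a count was tested. Skeletal muscle also holds skeletal actin mRNA, and the levels of its markers are given here. Its 10 markers summed to between 2.76 and 3.34 CPM in resistant hearts and between 2.16 and 4.17 CPM in sensitive hearts. Of them 2 were at 0 in every heart. None of the 4 that could be tested had an unadjusted p under 0.05, beside 14.5% of all tested genes. The smallest p among them were those of Mylpf, Tnnt3 and Tnni2, fast skeletal isoforms, with a log2FC of -0.75, 0.77 and 0.39. Of the 4 tested, 3 were higher and 1 lower in sensitive hearts. Each had at most 31 counts in a heart, so a difference could hardly show. The part of skeletal muscle in the difference of Acta1 was not tested.

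Cardiac actin, the main actin of the adult heart, was slightly lower on average in sensitive hearts and did not pass the test. Actc1 (chromosome 2, 114047282 to 114053548) had 4818, 5343 and 5673 CPM in resistant hearts and 5227, 4666 and 4453 CPM in sensitive hearts. These ranges overlapped, with means of 5278 ± 431 and 4782 ± 400 CPM (SD, n = 3) and a log2FC of -0.14 ± 0.08 (SE, adjusted p = 0.463 in edgeR). The ratio of the counts of both actins within a heart does not depend on library scaling. Its log2 was -4.95, -4.94 and -4.71 in resistant hearts and -4.07, -4.21 and -4.34 in sensitive hearts. The ratio was higher in each sensitive heart than in each resistant heart. The means were -4.87 ± 0.13 and -4.21 ± 0.14 (SD, n = 3), a difference of 0.66 or 1.58-fold. An exact two-sided permutation test gave p = 0.1, the smallest that 3 hearts against 3 allow, and 0.167 after adjustment over the 5 ratios tested. Scaled by the length of their coding transcripts, skeletal actin was 3.39% ± 0.313 of the sum of both in resistant and 5.24% ± 0.477 in sensitive hearts (SD, n = 3). The sum of both actins overlapped between the genotypes. The coding sequences are 86.3% identical, but no stretch of 50 bases of the Acta1 transcript occurs in Actc1, and 2.22% of such stretches occur in other genes, among them Actb.

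**Figure D3:**
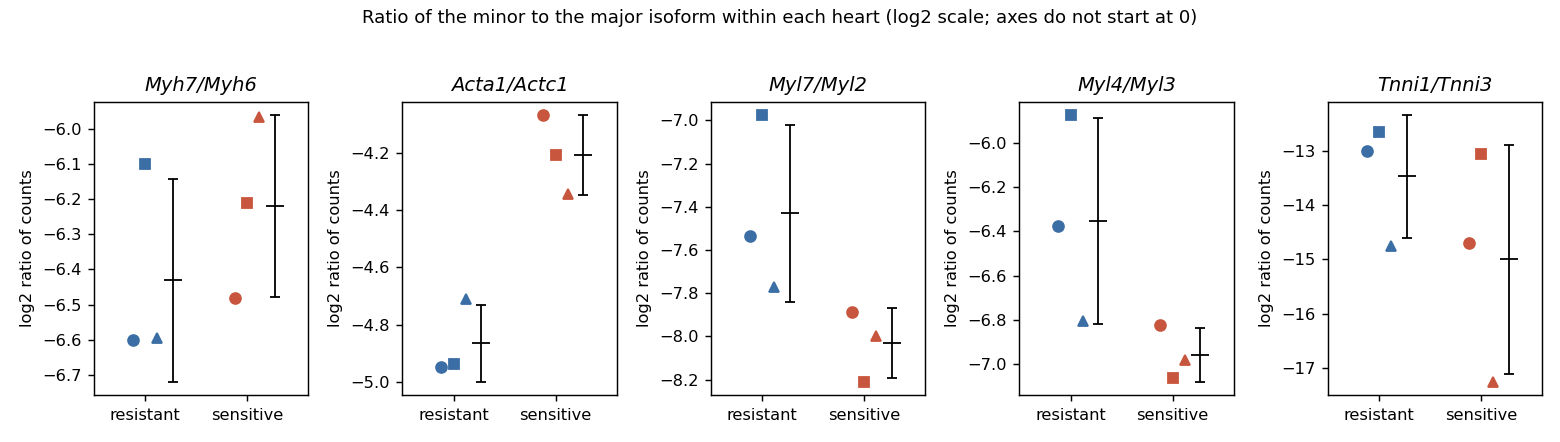
Log2 ratio of counts within each heart for the 5 isoform pairs, one panel per pair, with the genotypes on the x axis. Circles, squares and triangles are hearts 1, 2 and 3 and the bar is the mean ± SD (n = 3). The actin ratio is higher and the ratios of atrial to ventricular light chains lower in every sensitive heart than in every resistant heart, and the myosin heavy chain and troponin I ratios overlap.

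The myosin heavy chains were both detected at high depth. Myh6 (chromosome 14, 54941921 to 54966927), which encodes the fast α heavy chain, had 22732, 20870 and 28195 CPM in resistant hearts and 24692, 23841 and 25482 CPM in sensitive hearts. The sensitive hearts lay within the range of the resistant hearts, and the log2FC was 0.04 ± 0.10 (SE, adjusted p = 0.882 in edgeR). It was -0.04 without resistant heart 2. Myh7 (chromosome 14, 54970684 to 54994626), the slow β heavy chain, had 234, 305 and 292 CPM in resistant hearts and 276, 322 and 408 CPM in sensitive hearts. Sensitive heart 3 was the highest and sensitive heart 1 lay below both resistant heart 2 and resistant heart 3. The means of 277 ± 37.5 and 335 ± 67.1 CPM (SD, n = 3) gave a log2FC of 0.28 ± 0.12 (SE, adjusted p = 0.319 in edgeR and 0.551 in DESeq2), which was 0.11 without sensitive heart 3.

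The log2 ratio of Myh7 to Myh6 counts was -6.60, -6.10 and -6.60 in resistant hearts and -6.48, -6.21 and -5.96 in sensitive hearts. The genotypes overlapped, since resistant heart 2 was above sensitive hearts 1 and 2. The difference of 0.21 gave p = 0.4 in an exact two-sided permutation test, and it ran from 0.08 without sensitive heart 3 to 0.38 without resistant heart 2. Per length of coding transcript, Myh7 was 1.14% ± 0.236 of both heavy chains in resistant and 1.31% ± 0.231 in sensitive hearts (SD, n = 3). The coding sequences of Myh6 and Myh7 are 91.8% identical. Of the 50-base stretches of the Myh7 transcript 28.2% also occur in another gene, as do 22.6% of those of Myh6, and 1373 are shared between them. Some reads of the scarce Myh7 could therefore stem from the abundant Myh6 or have been left out, depending on how multiply mapped reads were counted. The antisense genes Mhrt and Gm31251 overlap Myh7, and since the use of strand in the counting is not given in the sources used here, their reads cannot be told apart from those of Myh7.

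The ventricular light chains and cardiac troponin I did not pass the test. Myl2 (chromosome 5, 122100951 to 122113472), the ventricular regulatory light chain, had 6133, 5540 and 6313 CPM in resistant and 6054, 5891 and 6868 CPM in sensitive hearts, with a log2FC of 0.06 ± 0.08 (SE, adjusted p = 0.769 in edgeR). Myl3 (chromosome 9, 110741861 to 110769798), the ventricular essential light chain, had 4464, 4267 and 4472 CPM in resistant and 4574, 4499 and 4806 CPM in sensitive hearts. Although all sensitive hearts were above all resistant hearts, the log2FC was 0.07 ± 0.07 (SE, adjusted p = 0.681 in edgeR). Tnni3 (chromosome 7, 4518305 to 4524229), the cardiac inhibitory subunit of troponin, had 3356, 2921 and 3479 CPM in resistant and 3287, 3373 and 4045 CPM in sensitive hearts. These overlapped, with a log2FC of 0.13 ± 0.09 (SE, adjusted p = 0.541 in edgeR). Dnaaf3 overlaps Tnni3 on the same strand and had at most 122 counts in a heart, beside at least 61140 of Tnni3.

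The fetal troponin I was near the limit of detection. Tnni1 (chromosome 1, 135779434 to 135810989) had 8, 9 and 2 counts in resistant and 2, 7 and 0 counts in sensitive hearts, with overlap between the genotypes. Summed over 3 hearts, these were 19 counts (exact 95% Poisson interval 11.4 to 29.7) and 9 counts (4.12 to 17.1), where the intervals cover counting error only. There were 10562 counts of Tnni3 for each count of Tnni1 in resistant and 23146 in sensitive hearts. The log2 ratio of Tnni1 to Tnni3 differed by -1.53 (exact two-sided permutation test, p = 0.4), by -0.40 without sensitive heart 3, which had no count, and by -2.50 without sensitive heart 2. No difference in Tnni1 was detectable at this depth.

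The atrial light chains had the lowest log2FC of the 9 tested genes, and neither passed in edgeR. Myl7 (chromosome 11, 5896637 to 5898782), the atrial regulatory light chain, had 33.0, 44.0 and 28.8 CPM in resistant hearts and 25.6, 19.9 and 26.9 CPM in sensitive hearts. Each sensitive heart was below each resistant heart, and resistant heart 2 was the highest. The means were 35.3 ± 7.83 and 24.1 ± 3.71 CPM (SD, n = 3), with a log2FC of -0.55 ± 0.14 (SE, adjusted p = 0.0799 in edgeR and 0.0177 in DESeq2). Myl4 (chromosome 11, 104550663 to 104595753), the atrial essential light chain, had 53.7, 72.8 and 39.9 CPM in resistant hearts and 40.3, 33.6 and 38.0 CPM in sensitive hearts. Resistant heart 2 was again the highest, and resistant heart 3 lay just below sensitive heart 1. The means were 55.5 ± 16.5 and 37.3 ± 3.43 CPM (SD, n = 3), with a log2FC of -0.57 ± 0.16 (SE, adjusted p = 0.0893 in edgeR and 0.248 in DESeq2). Without resistant heart 2 the log2 fold change was -0.36 for Myl7 (adjusted p = 0.305 in edgeR) and -0.33 for Myl4 (adjusted p = 0.314). Without resistant heart 3 it was -0.67 (adjusted p = 0.0406) and -0.76 (adjusted p = 0.00992). In whole hearts, fewer atrial cells and less mRNA per cell cannot be told apart.

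Relative to their ventricular paralogs both atrial light chains were lower in every sensitive heart. The log2 ratio of Myl7 to Myl2 was -7.54, -6.98 and -7.77 in resistant hearts and -7.89, -8.21 and -8.00 in sensitive hearts, a difference of -0.60 (exact two-sided permutation test, p = 0.1, and 0.167 after adjustment over the 5 ratios). That of Myl4 to Myl3 was -6.38, -5.87 and -6.81 in resistant hearts and -6.83, -7.07 and -6.98 in sensitive hearts, a difference of -0.61 (p = 0.1 and 0.167 in the same exact test). For Myl4 the separation of the genotypes was narrow, since resistant heart 3 and sensitive heart 1 were nearly equal. Without resistant heart 2 the differences were -0.38 and -0.37. Per length of coding transcript, Myl7 was 0.731% ± 0.214 of both regulatory light chains in resistant and 0.472% ± 0.0525 in sensitive hearts (SD, n = 3), and Myl4 was 1.24% ± 0.397 and 0.794% ± 0.0675 of both essential light chains.

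Some of the other atrial markers followed Myl4 and Myl7 from heart to heart and others did not. Of 12 atrial markers with both light chains included, 2 were higher (48.4% of all tested genes were) and 10 lower in sensitive hearts. None was called by edgeR (1.44% of all tested genes were), and DESeq2 called 1, Myl7 (3.89% of all genes). At an unadjusted p under 0.05 there were 4 (14.5% of all genes), Myl4, Myl7 and Dkk3 lower and Cacna1g higher. Resistant heart 2 had the highest value in 8 of the 12, a count without the share over all tested genes, which is not given here. The other 10 markers summed to 259, 285 and 230 CPM in resistant hearts and 258, 226 and 237 CPM in sensitive hearts, with a median log2 fold change of -0.15. Besides the light chains, Dkk3, a secreted protein enriched in atria, had the smallest p of the list, with a log2FC of -0.46 (adjusted p = 0.150 in edgeR), and -0.31 without resistant heart 2 (adjusted p = 0.453). Bmp10, a growth factor of the right atrium, had 19, 155 and 0 counts in resistant and 43, 8 and 0 counts in sensitive hearts. Sln, which encodes the atrial calcium pump regulator sarcolipin, had a log2FC of -0.39 (adjusted p = 0.455), and -0.01 without resistant heart 2. Cacna1g, a T-type calcium channel gene, ran the other way, with 20.5, 16.1 and 18.99 CPM in resistant hearts and 21.7, 27.5 and 21.1 CPM in sensitive hearts. These did not overlap, with a log2FC of 0.34 (adjusted p = 0.216), and resistant heart 2 was the lowest. Kcnj3, a potassium channel gene, had a log2FC of 0.07, and Gja5, the connexin gene of atria and conduction fibres, was highest in resistant heart 3. Over the 6 hearts, log2 CPM of Myl4 correlated with that of Myl7 at r = 0.96 (rho = 0.83) and with that of Dkk3 at r = 0.98 (rho = 0.94), values that share their libraries. The part of the atrial share of each sample in the differences of Myl4 and Myl7 was not tested.

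**Figure D4:**
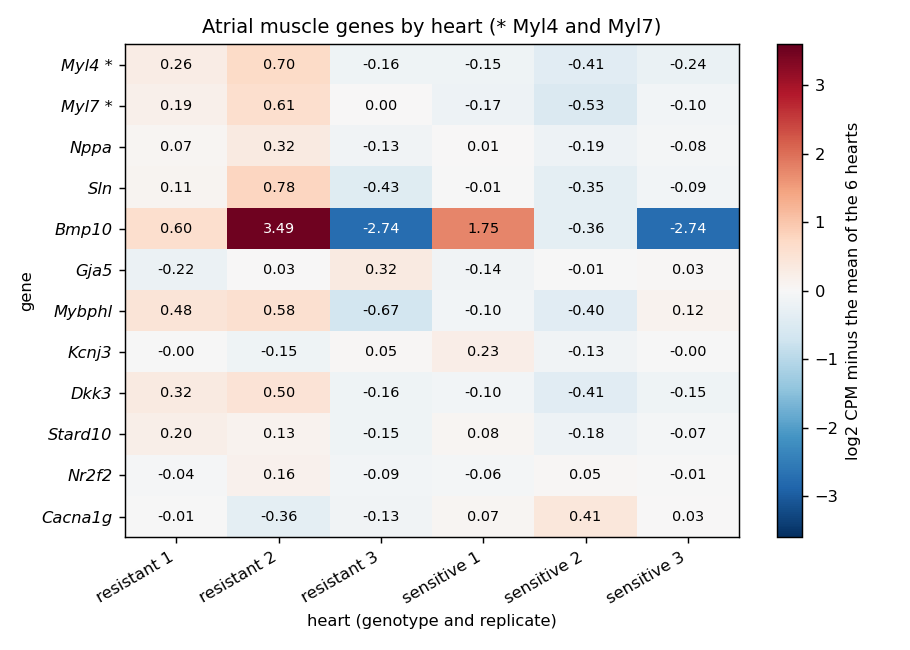
Heat map of 12 atrial marker genes (rows) in the 6 hearts (columns), coloured by log2 CPM minus the gene's own mean over the hearts. Resistant heart 2 has the highest value in 8 of the 12 rows, and the share of all tested genes highest in that heart is not given here. Myl4, Myl7 and Dkk3 run alike across the hearts, and Cacna1g is lowest in resistant heart 2 and highest in sensitive heart 2.

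The other cell types whose markers were counted varied between hearts as well. Macrophage markers summed to between 106 and 172 CPM in resistant and between 91.9 and 114 CPM in sensitive hearts, and all 4 were highest in resistant heart 2. So were 4 of the 5 endothelial and 3 of the 5 fibroblast markers, but 0 of the smooth muscle and blood markers. The share of all tested genes that were highest in resistant heart 2 is not given here, so these counts have no background. Haemoglobin and other red cell transcripts summed to 3187 CPM in sensitive heart 2 and to at most 1272 CPM in the other hearts. Of 6 ventricular markers edgeR called none (1.44% of all tested genes) and DESeq2 called 0 (3.89% of all genes). An unadjusted p under 0.05 was found for 2 of them (14.5% of all genes). Myl2, Myl3 and Myh7 are on this list, so it repeats in part the values of the isoform genes. Kcnip2, Myh7 and Irx4 had the smallest p among them, and the 2 under 0.05 were Kcnip2 and Myh7. Kcnip2 was lower in sensitive hearts without overlap, with a log2FC of -0.23 (adjusted p = 0.199 in edgeR). Myh7 was higher with overlap, with a log2FC of 0.28. Among the genes tested for smooth muscle (5), fibroblasts (5), endothelium (5), macrophages (4) and blood (5), edgeR called none, beside 1.44% of all tested genes. DESeq2 called 1 each for smooth muscle, fibroblasts and macrophages, beside 3.89% of all genes. In sensitive hearts 4 smooth muscle, 3 fibroblast, 3 endothelial and all 4 macrophage genes were lower, and all 5 blood genes were higher. Of all tested genes 48.4% were higher. The blood genes summed to 796 and 401 CPM in sensitive hearts 1 and 3, beside 954, 1272 and 536 CPM in resistant hearts. Their direction thus rested on sensitive heart 2.

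Levels of different genes were compared per kilobase of coding transcript, as CPM averaged over the 6 hearts. Myl2 was highest at 8413, followed by Myl3 at 4817. Myh6 at 3975, Tnni3 at 3739 and Actc1 at 3415 followed, and neighbours in this order overlapped in their ranges over hearts, as did Myl3 and Myh6. The next level was that of Acta1 at 153, whose lowest heart was above all hearts of the genes that follow. Myl7 at 50.3, Myl4 at 49.2 and Myh7 at 49.1 could not be ordered within the spread between hearts, and Tnni1 came last at 0.20. The order depends on the length used. Per kilobase of the gene length listed with the counts, Myh6 came first at 3613 and Myl4, with hearts from 7.24 to 15.7, came after Myh7, with hearts from 27.2 to 47.4. Myl2, Myl3, Myh6, Tnni3 and Actc1, the main adult ventricular isoforms, stood above the other 5 genes in every heart on both scales.

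The wider contractile apparatus was described with 46 further genes of the filaments, the Z-disc and the M-band, of which 36 were tested. Of these 25 were higher and 11 lower in sensitive hearts, with a median log2 fold change of 0.08. edgeR called 1 higher (0.78% of all tested genes were called higher) and 1 lower (0.659%), 10 had an unadjusted p under 0.05 (14.5% of all), and DESeq2 called 6 (3.89% of all), with Lmod3 and Mybpc2 among them. Mybpc2 (chromosome 7, 44501699 to 44524656), the fast skeletal form of myosin-binding protein C, had 17.8, 16.4 and 18.7 CPM in resistant hearts and 25.7, 24.1 and 25.1 CPM in sensitive hearts. It rose, with a log2FC of 0.50 ± 0.10 (SE, adjusted p = 0.0216 in edgeR). Lmod3 (chromosome 6, 97238534 to 97252759), a leiomodin that nucleates actin filaments, had 124, 107 and 132 CPM in resistant hearts and 96.4, 93.5 and 88.4 CPM in sensitive hearts. It fell, with a log2FC of -0.39 ± 0.08 (SE, adjusted p = 0.0302 in edgeR). Neither gene overlapped between the genotypes. Mybpc2 stayed past the threshold without resistant heart 3 or sensitive heart 2 and missed it without any other heart (adjusted p up to 0.0846). Lmod3 passed only without resistant heart 2 and missed it without any other heart (adjusted p up to 0.1204). The fast skeletal isoforms Tnnt3 and Mylpf lay farther from 0, with a log2FC of 0.77 ± 0.66 and -0.75 ± 0.48 (SE), and did not pass.

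**Figure D5:**
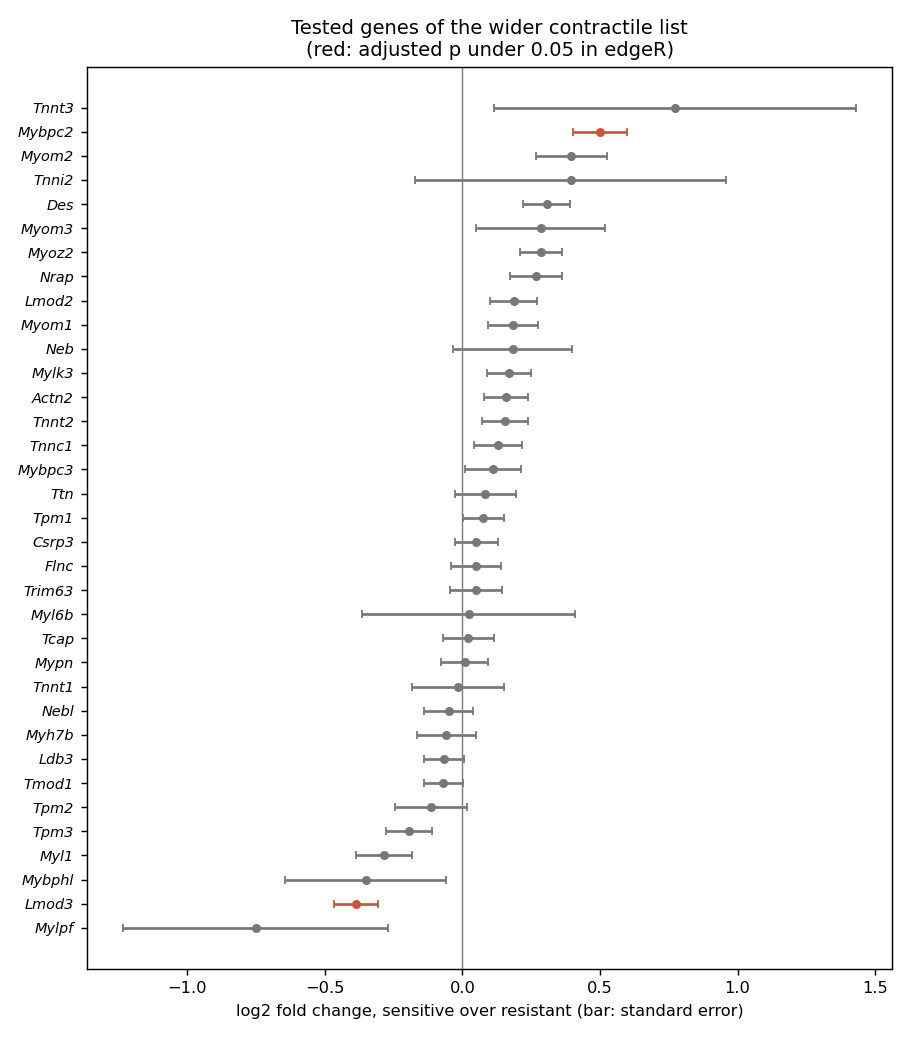
edgeR log2 fold changes (sensitive over resistant) with bars of 1 standard error for tested contractile genes outside the 10, with those called at an adjusted p under 0.05 marked. Mybpc2 at 0.50 and Lmod3 at -0.39 are the genes called, and Tnnt3 and Mylpf lie farther from 0 with wider bars.

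Myh7 and Acta1 were set beside 7 further genes of the fetal and stress program of the heart. Of these 9 genes 6 were higher and 3 lower in sensitive hearts, edgeR called none higher and 1 lower (0.659% of all tested genes were called lower), and 6 had an unadjusted p under 0.05 (14.5% of all). DESeq2 called 3 (3.89% of all), of which Nppb was lower and Xirp2 and Fhl1 were higher. The gene called by edgeR was Nppb (chromosome 4, 147985788 to 147987205), which encodes brain natriuretic peptide. It had 126, 107 and 134 CPM in resistant hearts and 96.2, 83.9 and 95.2 CPM in sensitive hearts, all below the resistant hearts. It fell, with a log2FC of -0.41 ± 0.09 (SE, adjusted p = 0.0303 in edgeR), and stayed past the threshold without resistant heart 2 but missed it without any other heart (adjusted p up to 0.122). Nppa, which encodes atrial natriuretic peptide, had 93.2 ± 14.7 CPM in resistant and 82.5 ± 5.72 CPM in sensitive hearts (SD, n = 3) with overlap, a log2FC of -0.18 (adjusted p = 0.432). Xirp2, an actin-binding protein of the intercalated disc, had 658 ± 48.4 CPM in resistant and 783 ± 19.5 CPM in sensitive hearts (SD, n = 3), without overlap. Its log2FC was 0.25 (adjusted p = 0.117 in edgeR and 0.00553 in DESeq2). Fhl1, a LIM domain protein of the sarcomere, had 105 ± 1.92 and 128 ± 9.45 CPM (SD, n = 3), also without overlap, and a log2FC of 0.29 (adjusted p = 0.0665 in edgeR and 0.00933 in DESeq2).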

How the data were processed

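RNA-seq was done on 6 hearts from separate mice, 3 per genotype as given by the labels. The authors deposited raw read counts per gene with a gene length. The submitters' processing notes name fastp, STAR, featureCounts and the build mm10. Versions, annotation release and the use of strand are not given in the sources used here. A deposited table of the authors' own comparison (mean, log2 fold change, standard error, Wald statistic, p-value and adjusted p-value) was not used.

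Counts were analysed with edgeR 4.0.16 in R 4.3.3 (TMM, filterByExpr with a minimum count of 10 and a minimum total of 15, quasi-likelihood test, Benjamini-Hochberg adjustment over 14866 genes, threshold 0.05). CPM were TMM-normalized, with a prior count of 2 on the log2 scale. A standard error is the log2 fold change divided by the square root of F. DESeq2 1.42.0 and other settings were alternatives. Log2 isoform ratios were taken within a heart with 0.5 added to each count, and tested with an exact permutation test over hearts, which cannot give a p under 0.1 with 3 hearts per genotype. Coding transcript lengths came from GENCODE M21, and their use was chosen after seeing the data. The edgeR script was also run on simulated counts with planted changes larger than those of the tested isoform genes. That run does not measure its power for differences of their size.

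The members and lists were chosen with earlier results of these data known. Named were the 10 genes, of the contractile, atrial, ventricular, skeletal muscle and fetal stress lists each gene with an adjusted p under 0.05 or, where none passed, the 3 with the smallest p, Nppa and Nppb, and the 5 genes most correlated with Myh7, Acta1 and Myl7. The atrial markers Bmp10, Sln, Cacna1g, Kcnj3 and Gja5, and Xirp2 and Fhl1, were named after their values were seen. Some single genes are not reported here.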

Additional observations from a re-analysis of the deposited data

How the results depend on the processing

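No paired analysis was possible because the labels give the mice separate numbers and no replicate numbers shared between the genotypes. The edgeR fit called 214 of 14866 genes (1.44%), 0 of the 9 tested sarcomere isoform genes and 2 of the 36 tested wider contractile genes. DESeq2 gave 409 of 10520 genes (3.89%), 1 isoform gene (Myl7) and 6 contractile genes. Testing every gene with a count gave 618, 4 (Acta1, Myh7, Myl4 and Myl7) and 7 genes. Some alternatives test other numbers of genes, and their shares over all genes are not given here, so their counts cannot be set against a background. Leaving out haemoglobin and mitochondrially encoded genes gave 1 isoform gene (Acta1, adjusted p = 0.0459). RLE and upper-quartile scaling, at least 10 counts in every heart and the robust prior called none of the 9. Leaving out each heart in turn gave 80 to 158 genes, 0 to 3 isoform genes and 0 to 3 contractile genes. The isoform genes were Acta1, Myl4 and Myl7 without resistant heart 3 and Acta1 without sensitive heart 3. In these fits the log2 fold change of Myh6 ran from -0.0423 to 0.18, below 0 without resistant heart 2, and that of Myl2 from -0.0044 to 0.11, below 0 without sensitive heart 3. The 5 isoform ratios kept their direction in all alternatives run, with leave-one-out differences of 0.08 to 0.38 (Myh7/Myh6), 0.59 to 0.74 (Acta1/Actc1), -2.50 to -0.40 (Tnni1/Tnni3), -0.77 to -0.38 (Myl7/Myl2) and -0.83 to -0.37 (Myl4/Myl3). For Acta1/Actc1, Myl7/Myl2 and Myl4/Myl3, whose hearts did not overlap, leaving out a heart could not reverse the direction. The exact permutation test of the ratios could not go below p = 0.1, or below 0.2 with a heart left out. Depth limited Tnni1, which had at most 9 counts in a heart. The causes of these changes were not tested.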

Other observations

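Myh6 and Myh7 each carry a microRNA of the same family in an intron, and the hearts' counts list both genes. The mature sequences from RefSeq (GRCm38.p6, chr14:54949072-54949093 and chr14:54975710-54975731, minus strand) are printed because they share their seed, bases 2 to 8, in capitals, and differ at 3 of 22 positions.
miR-208a-3p: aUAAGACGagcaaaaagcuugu
miR-208b-3p: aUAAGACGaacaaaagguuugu
The row of Mir208b, inside Myh7, had 277, 248 and 290 counts in resistant and 294, 275 and 294 in sensitive hearts (log2 fold change 0.16, adjusted p = 0.574 in edgeR). The row of Mir208a, inside Myh6, had 17, 4 and 18 counts and 5, 11 and 9 counts. The RNA extracted was total RNA, and such counts can stem from the unspliced host transcript, so they are not levels of the mature microRNAs. Per base of listed length (77 bases for Mir208b and 8616 for Myh7), the Mir208b row had 3.63 counts on average and that of Myh7 0.709. A read can extend past a row of 77 bases, so these values do not compare coverage. The origin of these reads was not tested. The row of Mhrt, an antisense RNA that overlaps Myh7, had 802, 737 and 935 counts in resistant and 872, 901 and 866 in sensitive hearts (log2 fold change 0.17, adjusted p = 0.459 in edgeR). With the use of strand unknown, this row can hold reads of Myh7 and is not a level of Mhrt alone.

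Among the 9077 genes whose log2 CPM averaged 3 or more, the 5 whose log2 CPM followed that of Myh7 most closely over the 6 hearts were P4hb, Naa10, Cd99l2, Mon2 and Zfp746 (r from 0.98 to 0.99). For Acta1 they were Wbp1l, Cyb5r1, Rfk, 4833439L19Rik and mt-Tw (r from 0.97 to 0.99). For Myl7 they were Sdcbp, Spred1, C1d, Uhmk1 and Cttnbp2nl (r from 0.97 to 0.98). These are the highest of many correlations over the same 6 libraries. None of these 15 genes had an adjusted p under 0.05 in edgeR, beside 1.44% of all tested genes. The smallest was that of mt-Tw, a mitochondrial tRNA gene, at 0.0542.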
